A study of Mus musculus with 5 samples.

Results

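The replication-dependent histone genes are the protein-coding genes whose symbols start with *Hist1h*, *Hist2h*, *Hist3h* or *Hist4h*. They were found by symbol after the Ensembl identifiers of the deposited tables had been matched to the NCBIM37 mouse annotation, and they make up 67 of the 22334 protein-coding rows and of the 37982 rows in all. By class they are 6 linker histone H1 genes, 19 H2A genes, 18 H2B genes, 11 H3 genes and 13 H4 genes. On NCBIM37, 55 of them lie on chromosome 13, 9 on chromosome 3 between positions 96023839 and 96082924, 2 on chromosome 11 and 1, *Hist4h4*, on chromosome 6. RNA was sequenced from brain microvascular fragments of 2 male heterozygous Ins2-AKITA mice and 3 male wildtype (WT) littermates, all on the C57BL6 background and 26 to 38 weeks old. The Ins2-AKITA allele is a mutation of an insulin gene that acts in pancreatic beta cells and leads to hyperglycemia. The fragments were captured from collagenase-treated brain with beads against PECAM1, an endothelial surface protein, and each mouse gave 1 library. The comparison asked how vessel RNA differs between hyperglycemic mice and their littermates.

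Replication-dependent histones package newly made DNA, and their genes are switched on together in S phase. Histone H1 binds the DNA between nucleosomes, while H2A, H2B, H3 and H4 form the nucleosome core. The messages of these genes usually end in a conserved stem-loop instead of a poly(A) tail, and the stem-loop binding protein Slbp governs their cutting, translation and decay. Cells that have stopped dividing rely more on histone genes outside these clusters, such as *H3f3a* and *H3f3b*, whose messages carry poly(A) tails. Libraries made from total RNA after removal of ribosomal RNA, as here, can contain messages with and without a poly(A) tail.

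The stem-loop is the feature that sets these messages apart, so 1 example of each form of it found among the 67 genes is shown, with *Hist1h1c* added as the other leading H1 gene. Capitals mark the 16 bases that match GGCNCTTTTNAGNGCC, in which N is any base and the outer letters pair into the stem. Lower case marks the 5 bases on either side. The bases were read 5′ to 3′ on the strand of the gene from the NCBIM37 genome.
Hist1h1e: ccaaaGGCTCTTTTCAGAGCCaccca
Hist1h1c: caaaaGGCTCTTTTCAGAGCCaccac
Hist1h3e: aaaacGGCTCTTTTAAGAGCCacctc
Hist2h2ac: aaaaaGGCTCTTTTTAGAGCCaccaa
Hist1h4d: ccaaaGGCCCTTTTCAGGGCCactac
Hist2h4: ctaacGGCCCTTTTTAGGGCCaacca

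These sites lie at chr13:23713646-23713671 on the minus strand for *Hist1h1e*, chr13:23831376-23831401 on the plus strand for *Hist1h1c* and chr13:23653767-23653792 on the minus strand for *Hist1h3e*. The site of *Hist2h2ac* is at chr3:96024336-96024361 on the minus strand, that of *Hist1h4d* at chr13:23673814-23673839 on the plus strand, and that of *Hist2h4* at chr3:96066857-96066882 on the minus strand. All lie in the 3′ untranslated part of an annotated exon. The letters were found in 60 of the 67 genes or in the 100 bases after them. The form of *Hist1h1e* was the common one, in 40 genes, and the form of *Hist1h3e* was in 9. The forms of *Hist1h4d* and *Hist2h4* were in 8 and 2 genes, which were H4 genes only, and the form of *Hist2h2ac* was in that gene alone. No match was found for *Hist1h2al*, *Hist1h2an*, *Hist1h3g*, *Hist1h4a*, *Hist1h4b*, *Hist1h4j* and *Hist2h2be*.

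Around the annotated 3′ end, in a window from 200 bases before it to 100 bases after it, 45 of the 67 genes held the stem-loop letters (67.2%), compared with 0 of 22267 other protein-coding genes (0%). AATAAA, the usual poly(A) signal, stood in the last 50 bases of 11 histone genes (16.4%) and of 12162 other protein-coding genes (54.6%). Both were searched on the gene's own strand only, and they cannot overlap each other. The 22 genes outside the first count include members such as *Hist1h1c*, whose annotated gene runs on for 834 bases after the stem-loop, and *Hist1h1d*, whose gene runs on for 3045 bases.

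Values are FPKM, the number of sequenced fragments for each kilobase of exon after scaling to library size, and each is from 1 mouse. The authors' FPKM of low genes come in steps, from which a depth of 1127237 to 2847586 fragments per mouse was estimated. WT 3 had the most, and the other 4 mice had at most 1317642. The depth was fitted to bring the low values to whole fragments. Between 96.7% and 97.4% of them were then within 0.05 of one, which is no separate check. Multiples of a depth also give whole fragments, so the lowest depth that fitted well was taken. Astrocyte, neuron and oligodendrocyte markers were abundant beside the endothelial markers: the summed FPKM of 8 astrocyte markers was 2205 to 3063 in WT and 3456 to 4089 in Ins2-AKITA, and that of 12 endothelial markers was 549 to 943 in WT and 463 to 570 in Ins2-AKITA. All 12 endothelial markers, *Pecam1* among them, were above the level needed for testing. All values come from tissue RNA, in which fewer cells of a type and less RNA per cell cannot be told apart.

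Histone messages were rare. Of the 67 genes, 53 had a fragment in at least 1 mouse, 17 had one in all 5 mice, and 14 were at 0 throughout. About 1976 fragments in all came from these genes, which is between 0.0191% and 0.0443% of the fragments of a mouse. They were shared out very unevenly. *Hist1h1e*, *Hist1h1c*, *Hist2h2bb* and *Hist1h2bc* held 61% of them, the 14 genes with at least 20 fragments held 90%, and 28 genes held under 5.5 fragments each. The 14 genes at 0 include *Hist1h2aa* and *Hist1h2ba*, both known from testis, and a count of 0 allows up to 3 fragments, which for these 14 genes is an FPKM of up to 3 to 6.55 in WT 3 and of up to 6.41 to 16.3 in the other mice. Such limits cover counting error only.

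**Figure D1:**
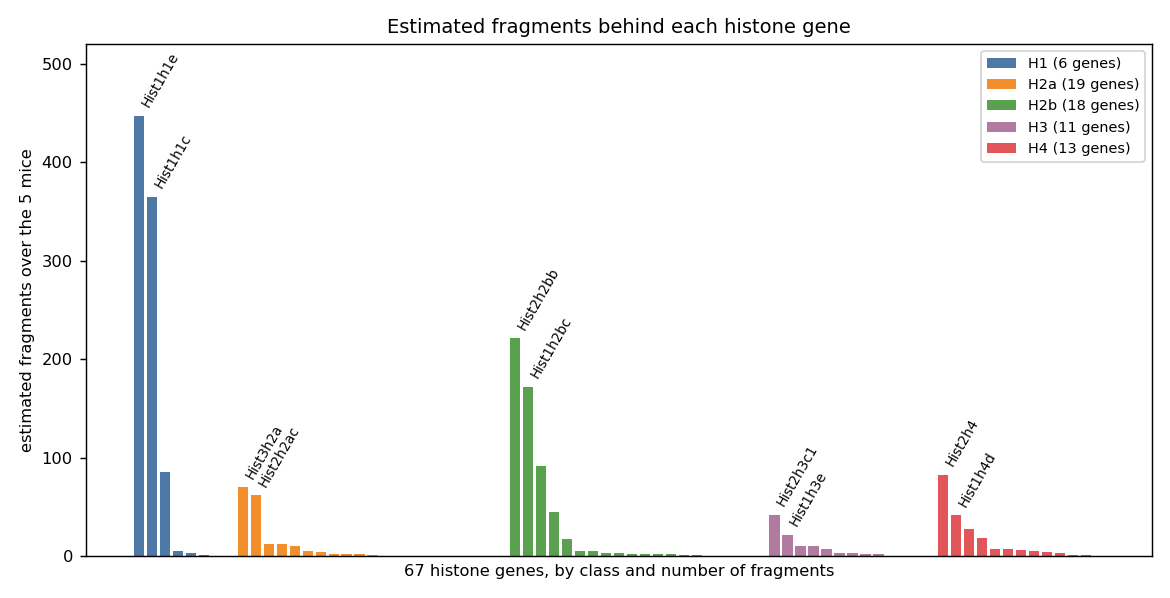
Estimated fragments summed over the 5 mice for each of the 67 histone genes, as bars grouped by class and sorted within it, with the leading pair of each class named. *Hist1h1e* and *Hist1h1c* reach 447 and 365 fragments, and most bars are too low to be seen on this scale.

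The genes that held the fragments differed in their annotated ends from the others. Of the 14 genes with at least 20 fragments, 4 had the stem-loop letters in the window around the annotated 3′ end and 5 had AATAAA in the last 50 bases. Of the 53 genes below 20 fragments, 41 had the stem-loop letters there and 6 had AATAAA. The median exon length was 1535 bases in the first group and 513 bases in the second. Among genes with a stem-loop and with no other histone gene's stem-loop inside them, the median distance from it to the annotated gene end was 1032 genomic bases for 12 genes with at least 20 fragments and 18 bases for 47 genes with fewer. These counts describe the annotation. A longer exon also collects more fragments at the same FPKM, and the tables do not say on which side of the stem-loop a fragment fell, so the part of length in this split was not tested.

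Similar copies limit what can be assigned to a single gene. Exon sequences are identical between *Hist1h2ao* and *Hist1h2ap*, between *Hist1h2bq* and *Hist1h2br*, and between *Hist2h2aa1* and *Hist2h2aa2*. In all, 27 members share at least 50% of their 50-base stretches with another histone row, and the median share was 16.9% for the genes with at least 20 fragments and 53.8% for those with fewer. How reads with several matches were divided is not given in the sources used here. In addition, 8 members overlap another annotated gene, such as *Hist2h3c1*, which overlaps *Hist2h2aa1*, and *Hist3h2a*, which overlaps *Trim17*.

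Summed over all 67 genes, the FPKM was 650 in WT 1, 426 in WT 2 and 328 in WT 3. It was 379 and 395 in Ins2-AKITA 1 and 2. The Ins2-AKITA mice lay inside the range of the WT mice, and the means were 468 ± 165 (SD, n = 3) for WT and 387 ± 11.5 (SD, n = 2) for Ins2-AKITA, a log2 ratio of -0.28. WT 1 sets that sign. Without it the log2 ratio was 0.036, and without *Hist1h1e* and *Hist1h1c* it was 0.033, an alternative chosen after seeing the data. On the TPM scale, where each mouse is scaled to its own FPKM total, the log2 ratio was 1.57. The median log2 fold change of all tested symbols moved from -0.035 to 1.07. The 1.57 is a ratio of summed values with nothing added, while the 1.07 is a median of folds on log2(TPM + 1). The added 1 shrinks the folds of low genes, so these values cannot be set against each other. Between 72.5% and 96.9% of the FPKM total of a mouse lay outside protein-coding rows, with 96.9% in WT 1, 96.8% in WT 2, 89% in WT 3, 90.2% in Ins2-AKITA 1 and 72.5% in Ins2-AKITA 2, and this share enters the TPM values directly.

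**Figure D2:**
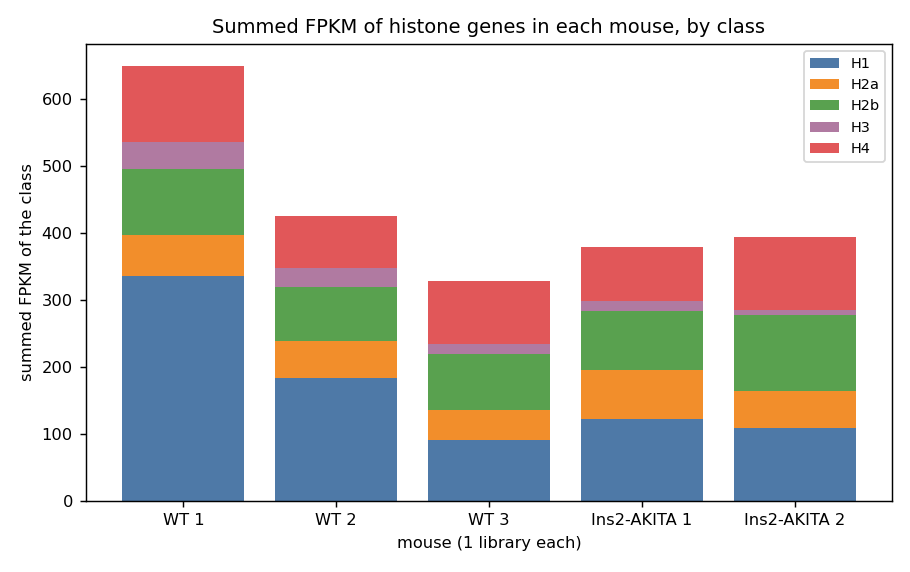
Summed FPKM of the histone genes in each mouse (1 library each), stacked by class from H1 at the bottom to H4 at the top. The bar of WT 1 reaches 650 and its H1 part 336, while the H2b part lies between 80.6 and 114 and the H4 part between 78.9 and 114 in all 5 mice.

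Of the 67 genes, 37 averaged an FPKM of 1 or more across the mice and were tested with limma on log2(FPKM + 1). None of the 37 passed an adjusted p of 0.05, where 0.0246% of all 16286 tested symbols did (0 higher and 4 lower). At an unadjusted p under 0.05 there were 5 histone genes, 2 with higher and 3 with lower values in Ins2-AKITA, and the background was 4.46% of all tested symbols. All adjusted p values of the histone genes from limma were between 0.90 and 1.00. In 4 of the 37 genes both Ins2-AKITA mice lay above all WT mice, against 9.24% of all tested symbols, and in 3 genes both lay below, against 10.3%. The median log2 fold change was -0.037 over the 37 genes and -0.035 over all tested symbols. A log2 fold change above 0 was found in 17 of the 37 genes and in 46.5% of all tested symbols, the share to set beside the class counts below. Of the 37, 4 were at 0 in both Ins2-AKITA mice and 0 were at 0 in all WT mice. The median over the other 33, a subset chosen after seeing the data, was 0.12. Leaving out those 4 genes could not lower the median. Leaving out 1 mouse turned the sign of the median over the 37 genes for WT 1 (0.084) and for Ins2-AKITA 2 (0.14). The other 30 histone genes were not tested, and 16 of them had a fragment in at least 1 mouse.

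**Figure D3:**
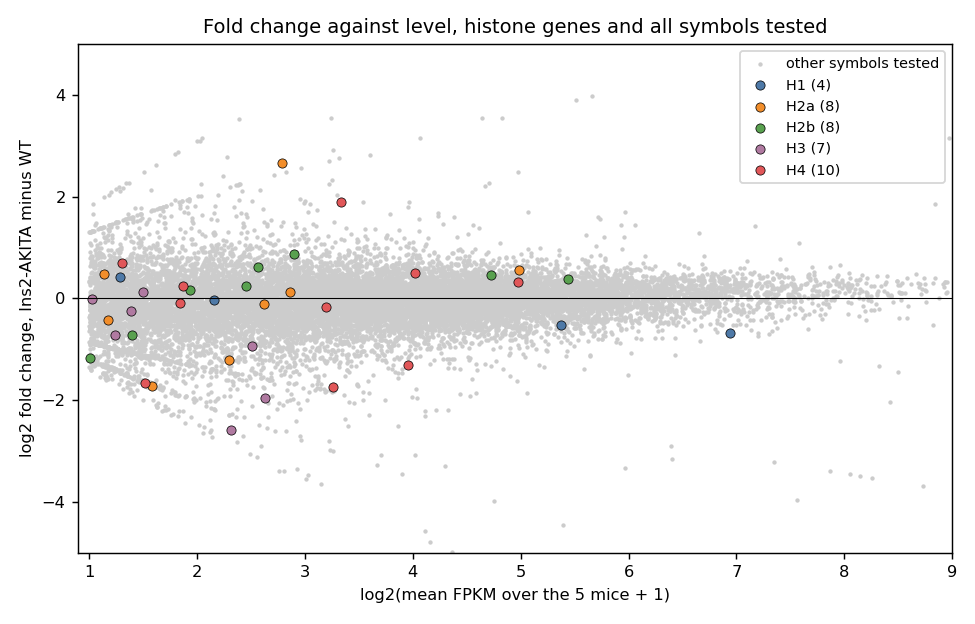
Log2 fold change (Ins2-AKITA minus WT, on log2(FPKM + 1)) against the log2 of the mean FPKM plus 1 for the 37 tested histone genes, coloured by class, and for the other tested symbols in grey, of which 142 fall outside the axes. The histone genes lie on both sides of 0 and inside the grey cloud, with 17 above 0 and 20 below.

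The H1 class had the highest summed FPKM in WT 1, WT 2 and Ins2-AKITA 1 and the widest range of sums between the WT mice. Its sum was 336, 184 and 90.1 in WT 1, 2 and 3 and 122 and 109 in Ins2-AKITA 1 and 2, or 51.7%, 43.2%, 27.5%, 32.2% and 27.7% of the histone FPKM. *Hist1h1e*, one of the main H1 genes of body cells, measured 241, 136 and 69.4 FPKM in WT against 84.9 and 79.3 in Ins2-AKITA, from 147, 94, 103, 50 and 53 fragments. In WT 1 it ranked 151st of 22199 protein-coding genes, and in WT 3 it ranked 1010th. The Ins2-AKITA values lay inside the WT range, and the log2 fold change was -0.68 ± 0.49 (SE; limma adjusted p = 0.90). *Hist1h1c*, the other widely used H1 gene, had 84.7, 43.7 and 17.6 in WT against 29.9 and 25.7 in Ins2-AKITA, with a log2 fold change of -0.53 ± 0.60 (SE; limma adjusted p = 0.90). Both genes put the mice in the same order, from WT 1 and WT 2 through Ins2-AKITA 1 and 2 to WT 3. Leaving out WT 1 brought the log2 fold changes to -0.24 for *Hist1h1e* and to -0.0068 for *Hist1h1c*. Leaving out WT 3 brought them to -1.13 and -1.11, and on the TPM scale they were 1.01 and 1.05. The TPM fit used log2(TPM + 1), and the added 1 shrinks folds more in low genes. The median of 1.07 over all tested symbols is therefore no baseline for these genes.

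The third H1 gene with many fragments, *Hist1h1d*, had 5.48, 3.58 and 1.76 in WT against 3.70 and 2.81 in Ins2-AKITA, with a log2 fold change of -0.04 ± 0.46 (SE; limma adjusted p = 1.00), whose sign turned under 5 of the alternatives. WT 1 was the highest mouse and WT 3 the lowest for this gene as well. *Hist1h1a* and *Hist1h1b* rested on 5 and 3 fragments over all mice, and *Hist1h1t*, the testis H1 gene, on 1 fragment, in WT 2. Over the 4 tested H1 genes the median log2 fold change was -0.28, and it was 0.12 without WT 1 and -0.74 without WT 3.

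The H2A class, whose members form a dimer with H2B, had a summed FPKM of 60.8, 54.6 and 45 in WT against 74 and 54.5 in Ins2-AKITA, and the genotypes overlapped. *Hist2h2ac* led it with 40.5, 25.4 and 14.3 in WT against 38.9 and 34.4 in Ins2-AKITA. Its log2 fold change was 0.55 ± 0.41 (SE; limma adjusted p = 0.90), with both Ins2-AKITA mice above WT 2 and WT 3 and below WT 1. *Hist1h2ak* had 0, 0 and 6.09 in WT against 15.3 and 8.13 in Ins2-AKITA, from 0, 0, 5, 5 and 3 fragments. Both Ins2-AKITA mice were above all WT mice, with an unadjusted limma p of 0.0269 and an adjusted p of 0.90, and *Hist1h2ak* shares 38.8% of its 50-base stretches with other histone rows. *Hist1h2af* had 0, 8.31 and 13.7 in WT against 4.89 and 4.35 in Ins2-AKITA from 11 fragments, and it shares 79.7%. No fold is given for it, since all its libraries but WT 3 were at or under 3 fragments. Of the 19 H2A genes, 8 were tested, 4 with a log2 fold change above 0 and 4 below, and 8 were at 0 in every mouse.

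The H2B class had a sum of 98.7, 80.6 and 84.2 in WT against 87.8 and 114 in Ins2-AKITA. *Hist1h2bc*, which makes a widely shared form of H2B, had 25.2, 41.4 and 47.6 in WT against 43.4 and 53.6 in Ins2-AKITA, and its log2 fold change was 0.38 ± 0.30 (SE; limma adjusted p = 0.90). WT 1, the highest mouse for the leading H1 genes, was the lowest here. *Hist2h2bb* had 46.9, 13.7 and 11.0 in WT against 21.5 and 34.1 in Ins2-AKITA, and WT 1 was again the highest. Its log2 fold change was 0.47 ± 0.61 (SE; limma adjusted p = 0.92), smaller than its error, and it was 1.08 without WT 1 and 0.085 without WT 3. *Hist3h2ba* had 4.34, 5.74 and 3.57 in WT against 6.74 and 11.9 in Ins2-AKITA, from 2, 3, 4, 3 and 6 fragments, 18 in all. Both Ins2-AKITA mice were above all WT mice, the log2 fold change was 0.87 ± 0.35 (SE), the unadjusted limma p was 0.0478 and the adjusted p was 0.90. *Hist2h2be*, which has no stem-loop letters and holds AATAAA in its last 50 bases, had 2.51, 3.48 and 6.75 in WT against 5.19 and 4.55 in Ins2-AKITA. Of the 18 H2B genes, 8 were tested, 6 with a log2 fold change above 0 and 2 below, with a median of 0.31.

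The H3 class had the lowest sum, at 40.2, 27.9 and 14.7 in WT against 14.4 and 7 in Ins2-AKITA. Both Ins2-AKITA mice lay below all WT mice, but by only 0.28 FPKM between Ins2-AKITA 1 and WT 3, and the sums rest on 21, 21 and 36 fragments in WT against 12 and 11 in Ins2-AKITA. *Hist1h3i* had 9.88, 8.68 and 4.07 in WT against 3.40 and 0 in Ins2-AKITA, from 3, 3, 3, 1 and 0 fragments, and *Hist2h3b* had 12.9, 5.68 and 1.33 against 0 and 0, from 4, 2 and 1 fragments in WT. The unadjusted limma p was 0.0303 for *Hist1h3i* and 0.0146 for *Hist2h3b*, and both adjusted p values were 0.90. No fold is given for *Hist2h3b*, since all its libraries but WT 1 were at or under 3 fragments. These genes share 73% and 79.7% of their 50-base stretches with other histone rows. *Hist1h3e*, with 22 fragments, had 9.83, 3.72 and 4.61 in WT against 1.45 and 3.84 in Ins2-AKITA, and here the genotypes overlapped. *Hist2h3c1*, which holds the most H3 fragments, had 1.04, 1.60 and 2.64 in WT against 2.23 and 1.63 in Ins2-AKITA, so that it did not follow the class sum. Of the 7 tested H3 genes 6 had a log2 fold change below 0, with a median of -0.72. Among subsets chosen after seeing the data, the median was -0.49 over the 6 genes with a fragment in both genotypes. It was -0.41 over the 2 genes with at least 20 fragments. On the TPM scale the median over the tested H3 genes was 0.21. The 1 added in log2(TPM + 1) shrinks folds more in low genes. The median of 1.07 over all tested symbols is therefore no baseline for the H3 genes.

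The H4 class had a sum of 114, 78.9 and 94 in WT against 80.7 and 110 in Ins2-AKITA, with means of 95.7 ± 17.7 (SD, n = 3) and 95.3 ± 20.6 (SD, n = 2). Its genes are short, with a median exon length of 427 bases, so that 1 fragment weighs heavily: in WT 3, the mouse with the most fragments, 1 fragment gave *Hist1h4k* an FPKM of 3.47. *Hist1h4d* had 19.5, 30.0 and 32.4 in WT against 25.2 and 44.9 in Ins2-AKITA, with a log2 fold change of 0.32 ± 0.33 (SE; limma adjusted p = 0.90), and WT 1 was the lowest mouse. Without Ins2-AKITA 2 the log2 fold change of *Hist1h4d* was -0.078. *Hist1h4h* had 17.3, 9.11 and 12.8 in WT against 17.9 and 19.0 in Ins2-AKITA, from 5, 3, 9, 5 and 6 fragments. Both Ins2-AKITA mice were above all WT mice in FPKM, but WT 1 and Ins2-AKITA 1 held 5 fragments each. The log2 fold change was 0.51 ± 0.30 (SE; limma adjusted p = 0.90).

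*Hist1h4c* went the other way, with 29.0, 17 and 12 in WT against 9.99 and 4.44 in Ins2-AKITA from 19 fragments in all. Both Ins2-AKITA mice were below all WT mice, the log2 fold change was -1.31 ± 0.46 (SE), the unadjusted limma p was 0.0274 and the adjusted p was 0.90. On the TPM scale its log2 fold change was 0.19. Since the 1 added in log2(TPM + 1) shrinks folds by level, the median of 1.07 over all tested symbols is no baseline for it. *Hist4h4*, which lies apart from the large clusters on chromosome 6, had 0, 7.20 and 6.94 in WT against 8.51 and 22.8 in Ins2-AKITA, and *Hist1h4k* had 24.7, 7.20 and 3.47 in WT against 0 and 7.59 in Ins2-AKITA. These rest on 7 and 6 fragments. Of the 10 tested H4 genes 5 had a log2 fold change above 0 and 5 below.

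**Figure D4:**
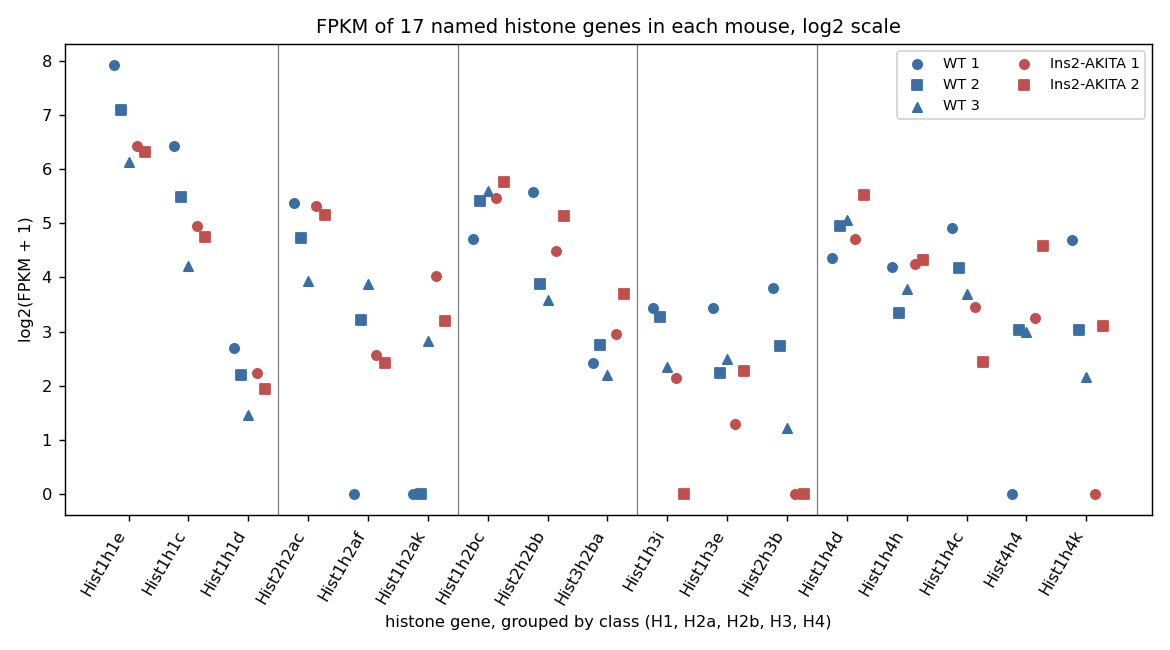
FPKM of 17 histone genes in each mouse as log2(FPKM + 1), grouped by class, with blue symbols for WT and red symbols for Ins2-AKITA and 1 symbol shape per replicate number. WT 1 is at the top for the 3 H1 genes and at the bottom for *Hist1h2bc* and *Hist1h4d*, and symbols at 0 are mice without a fragment.

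The order of the mice was not shared by the classes. Among the 14 genes with at least 20 fragments, WT 1 was the highest mouse for 9 and the lowest for 4. WT 3 was the highest for 2 and the lowest for 6. WT 2 and Ins2-AKITA 1 were the highest for 0 genes, and Ins2-AKITA 2 was the highest for 3. The spread between WT mice was wide even where fragments were many, with the highest WT value 3.48 times the lowest for *Hist1h1e* and 4.81 times for *Hist1h1c*.

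The histone genes that are not tied to replication were better detected, since all 11 on the list passed the minimum level. Of these 11, 0 passed the adjusted p of 0.05, 2 had a log2 fold change above 0 and 9 below, and the median was -0.26. *H3f3a*, which makes the replacement histone H3.3, had 69.0, 90.6 and 85.7 in WT against 121 and 142 in Ins2-AKITA. Both Ins2-AKITA mice were above all WT mice, with a log2 fold change of 0.68 ± 0.20 (SE), an unadjusted limma p of 0.0135 and an adjusted p of 0.90. *H3f3b*, which makes the same protein, had 101, 112 and 63.4 in WT against 95.6 and 57.4 in Ins2-AKITA, with a log2 fold change of -0.27 ± 0.33 (SE; limma adjusted p = 0.91). *H2afy2*, a macroH2A gene, had 7.98, 10.4 and 6.90 in WT against 4.97 and 4.41 in Ins2-AKITA, with an unadjusted limma p of 0.0465 and an adjusted p of 0.90. Its log2 fold change was -0.72 ± 0.29 (SE), and 0.51 on the TPM scale. Since the 1 added in log2(TPM + 1) shrinks folds more in low genes, the median of 1.07 over all tested symbols is no baseline for it.

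Set against these genes, the replication-dependent genes made up most of the H1 FPKM and a small part of the H3 FPKM. Their share of H1, with *H1f0* and *H1fx* as the other genes, was 74.5%, 67.7% and 53.8% in WT against 64.5% and 54.2% in Ins2-AKITA. Their share of H2A, with 6 other genes, was 26.6%, 23.5% and 20.6% in WT against 32.5% and 26.7% in Ins2-AKITA. Their share of H3, with *H3f3a* and *H3f3b*, was 19.1%, 12.1% and 8.95% in WT against 6.22% and 3.39% in Ins2-AKITA. The H2A and H3 shares did not overlap between the genotypes and the H1 share did. Among all tested symbols, 9.24% had both Ins2-AKITA mice above all WT mice and 10.3% had both below. No such rate was taken for shares. The gap for H2A is 0.15 percentage points between WT 1 and Ins2-AKITA 2, and the H3 shares contain both the few H3 fragments given above and the higher *H3f3a* values in Ins2-AKITA.

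**Figure D5:**
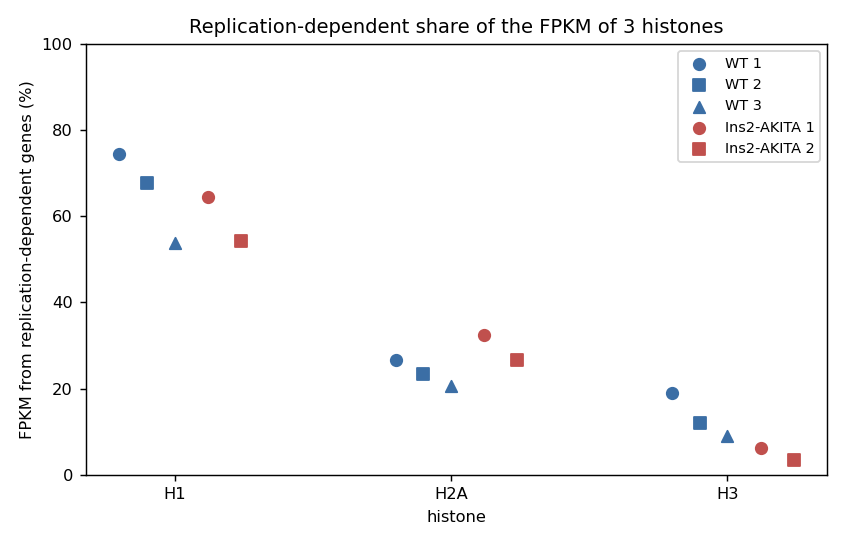
Share of the FPKM of H1, H2A and H3 that came from replication-dependent genes, in percent, with 1 point per mouse, blue for WT and red for Ins2-AKITA. The points fall from 53.8% to 74.5% for H1 to 3.39% to 19.1% for H3.

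The genes that make, cut and load histones were detected, and none of the tested ones passed the adjusted p of 0.05. *Slbp*, the stem-loop binding protein, had 8.43, 6.35 and 7.22 in WT against 7.88 and 5.72 in Ins2-AKITA, with a log2 fold change of -0.10 ± 0.28 (SE; limma adjusted p = 0.96). Of 18 genes for the cutting and transcription of histone messages, 17 were tested, with 5 log2 fold changes above 0 and 12 below and a median of -0.10. *Sympk*, a scaffold of the cleavage complex, had the highest values, at 90.6, 58.9 and 66.4 in WT against 53.9 and 51.1 in Ins2-AKITA, and both Ins2-AKITA mice lay below all WT mice (log2 fold change -0.43 ± 0.23, SE; limma adjusted p = 0.90). *Fip1l1*, a poly(A) factor, had 34.0, 41.6 and 38.9 in WT against 40.8 and 36.2 in Ins2-AKITA.

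Of 16 histone chaperone and chromatin assembly genes, 14 were tested, with a median log2 fold change of 0.12. *Hira*, the chaperone that places H3.3 outside replication, had 48.3, 63.1 and 50.8 in WT against 76.7 and 82.7 in Ins2-AKITA. Both Ins2-AKITA mice were above all WT mice, the log2 fold change was 0.56 ± 0.19 (SE), the unadjusted limma p was 0.0268 and the adjusted p was 0.90. *Npm1* and *Nap1l1*, abundant chaperones, overlapped between the genotypes, with means of 96 ± 8.71 (SD, n = 3) and 96 ± 20.5 (SD, n = 2) for *Npm1* and of 83.6 ± 7.32 (SD, n = 3) and 98.1 ± 22.1 (SD, n = 2) for *Nap1l1*. The 2 that were not tested, *Asf1b* and *Chaf1b*, did not reach a mean FPKM of 1, while *Chaf1a*, the partner of *Chaf1b* in chromatin assembly factor 1, had 6.21, 3.47 and 2.95 in WT against 2.71 and 0.891 in Ins2-AKITA (limma adjusted p = 0.90).

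Of 26 DNA replication and mitosis genes, 14 were tested, with a median log2 fold change of 0.17. The 12 that did not reach a mean FPKM of 1 include the mitotic genes *Mki67*, *Top2a*, *Cdk1*, *Plk1* and *Aurkb*, and *Ccnb1*, *Bub1* and *Aurkb* were at 0 in all mice. *Pcna*, the replication clamp, had 14.9, 20.5 and 23.6 in WT against 23.0 and 22.6 in Ins2-AKITA, and *Mcm7*, a helicase subunit, had 17.4, 9.55 and 6.47 in WT against 9.35 and 15.6 in Ins2-AKITA. *Ccne2*, a cyclin of the start of S phase, had 0, 0.565 and 1.18 in WT against 4.69 and 2.38 in Ins2-AKITA, with an unadjusted limma p of 0.0337 and an adjusted p of 0.90. The summed FPKM of the 26 genes was 85 to 93 in WT and 78.5 to 95.8 in Ins2-AKITA, so the genotypes overlapped.

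Markers of other cell types were compared in the same fit, in which 46.5% of all tested symbols had a log2 fold change above 0. The 8 astrocyte markers all had a log2 fold change above 0, with a median of 0.49, and 11 of the 12 endothelial markers and 10 of the 12 pericyte and smooth muscle markers had one below 0, with medians of -0.43 and -0.46. None of these markers passed the adjusted p of 0.05, with a smallest limma adjusted p of 0.80 among the astrocyte markers. The median for 9 neuron markers was 0.21, for 7 oligodendrocyte markers 0.07 and for 7 microglia markers 0.22. The 4 tested blood cell markers of 8 had a median of -0.79, and the summed FPKM of the 8 was 29.6 to 58.4 in WT and 21.4 to 28.3 in Ins2-AKITA. The part of the cell makeup in the histone values was not tested.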

How the data were processed

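The authors depleted ribosomal RNA, made stranded total RNA libraries, mapped reads to NCBIM37 with TopHat2 2.0.4, filtered duplicates with Picard 1.92 and ran their tests in Cufflinks 2.2.1, per the labels and methods. The deposited values are FPKM per gene, with 1 table per mouse. The program that made them, the read length and the handling of multiply mapped reads are not given in the sources used here. Removing duplicates can lower short abundant genes, and the length correction raises the FPKM per fragment of short genes.

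Identifiers were matched to the GENCODE annotation of NCBIM37, which held 37197 and not 785 of them. Rows sharing a symbol were summed to 34615 symbols, and 3 histone pseudogene rows were left out of the members. The 16286 symbols averaging an FPKM of 1 or more entered limma 3.58.1 (R 4.3.3; eBayes with trend, two-sided, Benjamini-Hochberg). The model had genotype alone and was fitted to log2(FPKM + 1). Fold changes on that scale understate low genes. The fit was tested on simulated data. Fragments per gene were estimated from the steps of low values and annotated exon lengths. Python 3.11.15, numpy, pandas and scipy served for all else. An exact permutation test over the 10 splits of 5 mice cannot give p below 0.1, so none is printed. Each library is a separate animal.

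The genes named are the 3 members per class with the highest mean FPKM, members with an unadjusted p under 0.05, the 3 largest and 3 smallest log2 fold changes among tested members, and from each other list the 2 highest genes, those with an unadjusted p under 0.05, and *Slbp*. Some further genes, such as *Hist2h2be*, *Hist2h3c1* and the genes at 0, were named after their values were seen. Members and lists were chosen with earlier results of these data known. Also tried were 0.1 in place of the added 1, no filter, a minimum mean FPKM of 5, TPM, protein-coding sums, median-ratio and quantile scaling, a constant prior, protein-coding rows, a replicate block and each mouse left out.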

Additional observations from a re-analysis of the deposited data

How the results depend on the processing

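Under all 15 alternatives of the fit, limma called 0 histone genes, with between 1 and 9 at an unadjusted p under 0.05. Across all symbols the calls went from 0 higher and 4 lower to 58 and 30 on the TPM scale and to 1 and 2 with a constant prior. There were 2 lower without a filter, 2 with a minimum mean FPKM of 5 and 1 among protein-coding rows. Leaving out 1 mouse gave 0 to 10 higher and 1 to 6 lower, with the 10 without Ins2-AKITA 2. The cause was not tested. The TPM scale moved the median of all symbols to 1.07. Leaving out an Ins2-AKITA mouse leaves 1, which is assumed to vary like the WT mice.

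The median log2 fold change of the tested histone genes was -0.10 without a filter, 0.22 with a minimum mean FPKM of 5, 0.53 in TPM and 0.029 after quantile scaling. It was 0.14 for members with at least 20 fragments and 0.12 for members above 0 in both genotypes, both chosen after seeing the data. With 1 mouse left out it ran from -0.19 to 0.14. In TPM the class medians were 0.87 for H1, 0.51 for H2A, 1.04 for H2B, 0.21 for H3 and 0.58 for H4, and the log2 ratio of the sums was 1.57. With a minimum mean FPKM of 5 they were 0.34 for H2A and -1.95 for H3, and the H4 median without a filter was -0.13. With 1 mouse left out, the H2A median ran from -0.34 to 0.20 and the H4 median from -0.33 to 0.41.

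Of 431 recomputed fold changes of the named genes, 30 turned their sign. In TPM these were *Hist1h1c* at 1.05, *Hist1h1d* at 0.74, *Hist1h1e* at 1.01, *Hist1h3e* at 0.33, *Hist1h4c* at 0.19 and 6 more. *H2afy2* was at 0.51, *H3f3b* at 1.37, *Npm1* at 1.63, *Slbp* at 0.93 and *Sympk* at 1.20. The last was *Hist1h4k*, for which no fold is given, since it rests on 6 fragments. Other scalings turned *Hist1h1d* (0.071, quantile), *Fip1l1* (-0.03, protein-coding sum) and *Npm1* (0.014, median-ratio). With 1 mouse left out, the fold changes that turned their sign ran from -0.36 to 0.25 for *Hist1h1d*, -1.06 to 0.88 for *Hist1h2af*, -0.078 to 0.73 for *Hist1h4d*, -0.07 to 0.10 for *Fip1l1*, -0.64 to 0.091 for *H3f3b*, -0.13 to 0.56 for *Mcm7*, -0.017 to 0.44 for *Nap1l1*, -0.23 to 0.20 for *Npm1* and -0.30 to 0.098 for *Slbp*. The cause was not tested.

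The methods pair no mice, so the replicate numbers were not taken as pairs. Deviations from the genotype means correlated at 0.0512 and -0.0343 between samples with the same number. The deviations of the 2 Ins2-AKITA mice mirror each other, so these correlations cannot decide whether mice were paired. With the replicate block, WT 3 has no partner, calls were 0 higher and 5 lower, 8 histone genes had an unadjusted p under 0.05, the median was -0.038 over the histone genes, -0.74 over H1 and 0.41 over H4, and *Mcm7* (-0.085) and *Npm1* (0.052) turned sign.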

Other observations

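Among the rows left out as pseudogenes, *Hist2h3c2* had a fragment in 4 of the 5 mice, 5 fragments in all, with an FPKM of 0, 0.963, 0.895, 1.13 and 0.994 in WT 1 to 3 and Ins2-AKITA 1 and 2. *Hist3h2bb-ps* had 3 fragments and *Hist1h2aj* 2.3. None was tested as a member.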
